A study of Mus musculus with 6 samples.

Results

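A set of 33 genes that follow the neutrophil from the promyelocyte to the mature cell was examined on arrays of whole marrow, from 3 SCID/Bg mice given NOX-A12 and from 3 untreated SCID/Bg mice. The genes were given as a list of symbols and 1 probe set was taken for each, the one with the highest mean over the 6 arrays among those that carry only that gene's symbol. Of the 33, 28 had such a probe set, out of 18193 genes measured in this way. The other 5, Prss57, Cebpe, Retnlg, Fpr1 and Ly6g, had none in the annotation used and were not analysed here.

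Both groups shared the SCID/Bg strain, an immunodeficient background without mature lymphocytes of the T and B lineages and with poorly functioning natural killer cells, so its marrow is rich in myeloid and erythroid cells. NOX-A12 is a mirror-image RNA oligonucleotide that binds the chemokine CXCL12. Each mouse gave 1 array, an Affymetrix Mouse Genome 430 2.0 chip. The labels name no age, dose, route or time from treatment to harvest. The marrow carried transcripts of its main lineages, such as the heme synthesis gene Alas2 of erythroid cells, at 7756 to 8019 in treated and 6877 to 8152 in untreated mice. Of the T-cell receptor complex genes, Cd3e was at 3.35 to 15.9 in treated and 3.31 to 13.7 in untreated mice, and Cd3d at 1650 to 1895 in treated and 1105 to 1513 in untreated mice. Values are linear probe-set intensities as deposited. A log2 change is the mean of treated minus the mean of untreated mice in log2(intensity + 16), a scale that understates differences at dim probe sets, and is given ± its standard error (SE).

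Neutrophils mature in the marrow in a fixed order. Promyelocytes fill primary granules with myeloperoxidase and serine proteases, myelocytes and metamyelocytes make the secondary and tertiary granules with lactoferrin, cathelicidin and lipocalin, and the last stages bring the chemoattractant receptors and surface proteins of the mature cell. Many genes of one stage are turned down as those of the next are switched on, but not all are. Their transcripts therefore mark the stages only roughly. CXCL12 holds neutrophils and their precursors in the marrow through CXCR4, whereas CXCR2 and the receptor of granulocyte colony-stimulating factor act in their release. In whole marrow, fewer cells of a type and less RNA per cell cannot be told apart.

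The genes were ordered by stage. The early stage held the 8 genes Mpo, Prss57, Cebpe, Cebpa, Gfi1, Fcnb, Cst7 and Igsf6, of which 6 were measured. The granule stage held 11, all measured, namely Ltf, Camp, Lcn2, Ngp, Chil3, Cybb, Cd177, Lyz2, Itgb2l, Ltb4r1 and Padi4. The late stage held 14, of which 11 were measured, namely S100a8, S100a9, Cxcr2, Csf3r, Trem1, Fpr2, Wfdc21, Stfa2l1, Ccrl2, Mxd1 and Hcar2.

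The sequences upstream of 6 of these genes are shown as background, and no expression value below uses them. Ltf, Camp, Ngp and S100a8 encode granule or cytosolic proteins, and Cxcr2 and Csf3r encode receptors. The within-group SD on the log2 scale was 0.02 for Camp, 0.03 for Ngp, 0.01 for S100a8 and 0.12 for Ltf. It was 0.68 for Cxcr2 and 0.42 for Csf3r, but 0.06 for Fpr2, a receptor gene whose sequence is not shown. Mean intensity in untreated mice was 11271 for Camp, 12419 for Ngp, 16576 for S100a8 and 9526 for Ltf. It was 1115 for Cxcr2, 1706 for Csf3r and 5848 for Fpr2. Whether sequence and signal are linked was not tested. Each run is the 250 bases before the gene's start in RefSeq on build GRCm38.p6, read 5′ to 3′ on the gene's own strand. Capitals mark matches to TTGCNNAA, a core of sites bound by C/EBP factors, and to GAGGAA, a core of sites bound by PU.1, with the reverse complements TTNNGCAA and TTCCTC also searched.
Ltf, chr9:111019042-111019291, plus strand: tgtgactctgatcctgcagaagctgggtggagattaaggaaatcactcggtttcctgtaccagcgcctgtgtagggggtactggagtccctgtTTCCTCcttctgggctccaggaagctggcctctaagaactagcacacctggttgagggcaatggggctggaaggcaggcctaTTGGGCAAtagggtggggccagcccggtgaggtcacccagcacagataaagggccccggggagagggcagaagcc
Camp, chr9:109849457-109849706, minus strand: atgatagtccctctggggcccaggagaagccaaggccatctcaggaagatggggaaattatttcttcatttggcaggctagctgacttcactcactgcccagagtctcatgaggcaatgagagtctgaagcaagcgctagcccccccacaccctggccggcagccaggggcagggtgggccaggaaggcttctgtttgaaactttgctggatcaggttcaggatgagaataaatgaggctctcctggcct
Ngp, chr9:110419558-110419807, plus strand: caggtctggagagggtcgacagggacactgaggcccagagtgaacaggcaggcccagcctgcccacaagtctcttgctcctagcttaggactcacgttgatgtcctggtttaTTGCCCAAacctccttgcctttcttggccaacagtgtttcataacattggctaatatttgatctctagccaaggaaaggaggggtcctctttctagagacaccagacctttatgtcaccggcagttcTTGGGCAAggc
S100a8, chr3:90668821-90669070, plus strand: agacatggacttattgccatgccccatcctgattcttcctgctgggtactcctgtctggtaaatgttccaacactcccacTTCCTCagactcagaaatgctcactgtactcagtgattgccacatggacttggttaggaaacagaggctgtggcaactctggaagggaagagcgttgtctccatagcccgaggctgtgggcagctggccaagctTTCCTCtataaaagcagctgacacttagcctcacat
Cxcr2, chr1:74153744-74153993, plus strand: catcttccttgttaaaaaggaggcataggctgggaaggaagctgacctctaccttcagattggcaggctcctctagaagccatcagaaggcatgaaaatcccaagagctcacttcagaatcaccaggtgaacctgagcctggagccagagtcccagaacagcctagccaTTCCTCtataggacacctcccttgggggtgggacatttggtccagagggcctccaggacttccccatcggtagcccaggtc
Csf3r, chr4:126024409-126024658, plus strand: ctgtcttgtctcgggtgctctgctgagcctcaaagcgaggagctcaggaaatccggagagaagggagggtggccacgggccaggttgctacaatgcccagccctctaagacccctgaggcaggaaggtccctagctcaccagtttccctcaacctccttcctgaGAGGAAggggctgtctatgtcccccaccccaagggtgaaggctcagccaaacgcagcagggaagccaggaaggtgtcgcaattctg
The Ltf window held 1 match to the C/EBP string, from 75 to 68 bases before the start, and 1 to the PU.1 string. The Ngp window held 2 matches to the C/EBP string, the nearer from 11 to 4 bases before the start. The S100a8 window held 2 matches to the PU.1 string, and the Cxcr2 and Csf3r windows held 1 each. The letters searched are not in the Camp window, and no match shown overlaps another. Over the 29 listed genes with an upstream sequence in the table, 27.6% held the C/EBP string, against 10.8% of the 27025 genes in the table. The PU.1 string was held by 48.3% of the listed genes, against 25.9% of all genes. A match describes the letters in the window and was not tested as a binding site.

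Most transcripts of neutrophil maturation differed little between marrow of NOX-A12-treated and untreated mice, with log2 changes from -0.31 to 0.42. Of the 28 genes, 19 had a positive log2 change (67.9%), where 47.3% of all genes did. The median log2 change over the 28 was 0.05, against -0.01 over all genes. In the limma fit over all 45037 probe sets, 0 of the 28 passed at an adjusted p under 0.05 in either direction, and percent called was 0% higher and 0% lower over all probe sets. The lowest adjusted p among the 28 was 0.967. At an unadjusted p under 0.05, also 0 of the 28 were called, where 1.78% of all genes were called as higher and 3.53% as lower. Groups did not overlap for 2 genes higher in treated mice, Cst7 and Chil3, against 3.92% of all genes. They did not overlap for 1 gene lower in treated mice, Ngp, against 6.68% of all genes.

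The fit bounded the differences more tightly for some genes than for others. For 22 of the 28, the 95% interval of the log2 change, unadjusted for the number of genes, lay within 0.5 of 0, a change of 1.41-fold. For 27 of the 28 it lay within 1 of 0. The exception was Cxcr2.

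**Figure D1:**
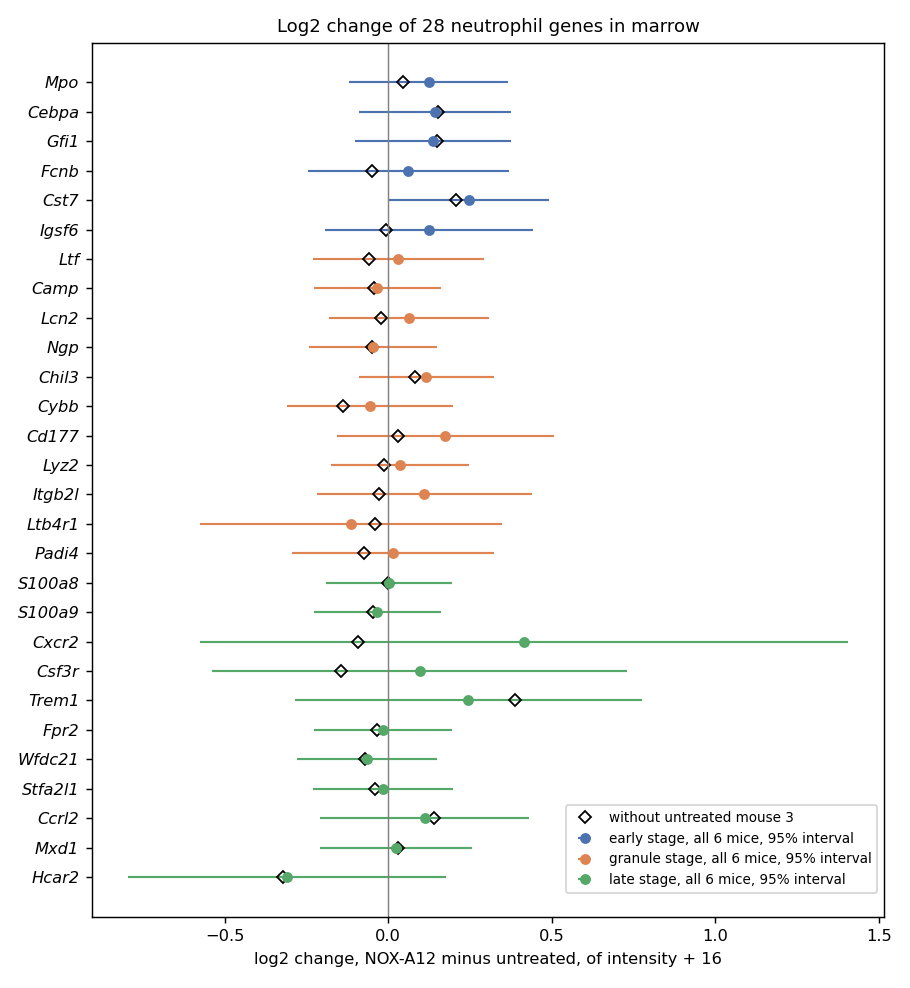
Log2 change (NOX-A12 minus untreated, horizontal axis) of each measured gene, early stage at the top and late stage at the bottom. Filled points with bars are the change and its 95% interval over all 6 mice, and open diamonds are the change without untreated mouse 3. Every bar crosses 0, and the widest belongs to Cxcr2.

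The array of untreated mouse 3 differed most from the rest. Its correlation with the other arrays, taken over probe sets, which are no replicates, was 0.982 to 0.985, and the other 5 correlated with each other at 0.991 to 0.994. This mouse had the lowest level of the 6 for 14 of the 28 genes, or 50.0%, and was the lowest for 20.9% of all genes. It was the highest for 0 of the 28, although it was the highest for 28.3% of all genes. Untreated mouse 2 was the highest for 13 of the 28 (46.4%), against 14.6% of all genes. The mouse most often the highest and the mouse most often the lowest for these genes were thus both untreated. Without untreated mouse 3, 10 of the 28 genes had a positive log2 change (35.7%, against 48.3% of all genes) and the median was -0.03. Groups then did not overlap for 2 genes higher in treated mice, against 8.84% of all genes, and for 4 lower, against 11.3%. By limma, 0 of the 28 passed here too, where percent called was 0% in each direction.

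**Figure D2:**
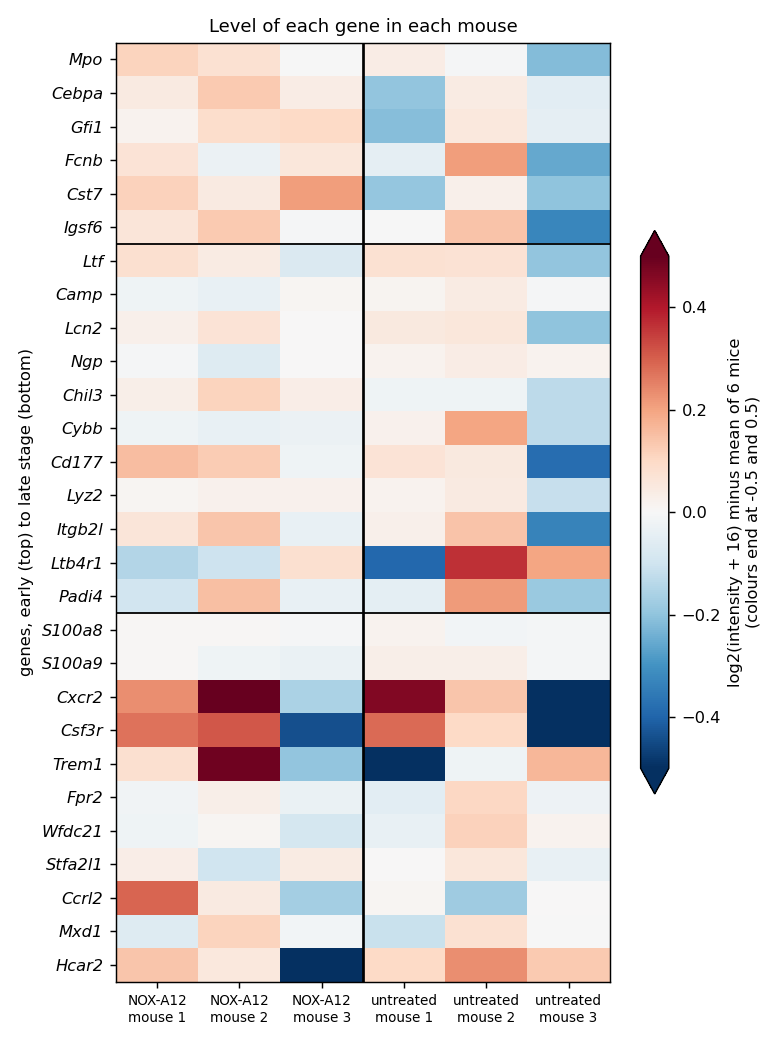
Level of each gene (rows, early stage at the top) in each mouse (columns, NOX-A12 on the left and untreated on the right), as log2(intensity + 16) minus the mean of the 6 mice. Red is above and blue below that mean, with colours ending at -0.5 and 0.5. The column of untreated mouse 3 is blue for most early and granule stage genes, and the strongest colours lie in the rows of Cxcr2, Csf3r, Trem1, Hcar2 and Ltb4r1.

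In the early stage, all 6 measured genes had a positive log2 change, from 0.06 to 0.25, with a median of 0.13. Mpo, which encodes myeloperoxidase, the main peroxidase of primary granules, had intensities of 8243, 8063 and 7629 in treated mice, against 7840, 7607 and 6564 in untreated mice. The lowest value came from untreated mouse 3 and the groups overlapped. Mpo averaged 7979 ± 315 in treated and 7337 ± 680 in untreated marrow (SD, n = 3 each), a log2 change of 0.12 ± 0.10 that was 0.05 without untreated mouse 3.

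Cst7 encodes cystatin F, an inhibitor of the cathepsin that activates granule serine proteases, and was the early gene with the largest change. Its intensities were 482, 459 and 515 in treated mice, against 386, 453 and 384 in untreated mice. All treated values lay above all untreated values, but NOX-A12 mouse 2 and untreated mouse 2 were nearly level. The log2 change was 0.25 ± 0.10 (limma, Benjamini-Hochberg adjusted p = 0.967), and 0.21 without untreated mouse 3.

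Cebpa and Gfi1 encode the transcription factors that commit progenitors to granulocyte and monocyte fates and that repress other programs during neutrophil differentiation. Cebpa had intensities of 431, 458 and 429 in treated mice, against 362, 429 and 401 in untreated mice, where untreated mouse 2 lay inside the treated range. Its log2 change was 0.14 ± 0.10 and that of Gfi1 was 0.14 ± 0.10. For both, the lowest mouse was untreated mouse 1, and both were higher by 0.15 without untreated mouse 3. Fcnb, which encodes ficolin B, a pattern recognition protein stored in granules, gave 0.06 ± 0.13. Igsf6, which encodes an immunoglobulin-superfamily membrane protein of myeloid cells, gave 0.12 ± 0.13. For these last genes the sign turned without untreated mouse 3, to -0.05 for Fcnb and -0.01 for Igsf6, which left 4 of the 6 early genes positive.

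In the granule stage the changes were small and went both ways. Of the 11 genes 7 had a positive log2 change, the range was -0.11 to 0.17 and the median 0.03. Ltf encodes lactoferrin, the iron-binding protein of secondary granules. It had intensities of 10139, 9873 and 9112 in treated mice, against 10109, 10100 and 8369 in untreated mice. The groups overlapped, with untreated mouse 3 the lowest, and the log2 change was 0.03 ± 0.11. Camp encodes cathelicidin, an antimicrobial peptide precursor of the same granules. Its intensities were 10976, 10844 and 11227 in treated mice, against 11250, 11461 and 11101 in untreated mice, a log2 change of -0.03 ± 0.08.

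Ngp and Chil3 were the granule genes whose groups did not overlap, in opposite directions. Ngp, which encodes a cystatin-like protein of secondary granules, had intensities of 12175, 11680 and 12230 in treated mice, against 12358, 12541 and 12358 in untreated mice. All treated mice lay below all untreated mice, by a log2 change of -0.05 ± 0.08. Chil3, which encodes a chitinase-like lectin, had intensities of 9215, 9751 and 9231 in treated mice, against 8890, 8880 and 8236 in untreated mice. All treated mice lay above all untreated mice, by 0.12 ± 0.09.

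Cd177 encodes a surface glycoprotein of neutrophils that is also held in secondary granules, and had the largest change of this stage. Its intensities were 3430, 3365 and 3033 in treated mice, against 3229, 3183 and 2363 in untreated mice. The means were 3276 ± 213 in treated and 2925 ± 487 in untreated marrow (SD, n = 3 each), with mouse 3 the lowest untreated mouse. The log2 change of 0.17 ± 0.14 was 0.03 without that mouse. Lcn2, whose product binds bacterial siderophores, gave 0.06 ± 0.10, and the lysozyme gene Lyz2 gave 0.04 ± 0.09. Padi4, which encodes the enzyme that citrullinates histones in extracellular trap formation, gave 0.01 ± 0.13, and the integrin gene Itgb2l gave 0.11 ± 0.14. Ltb4r1, which encodes a receptor for leukotriene B4, had the widest spread of the stage, from 767 to 900 in treated and from 643 to 1100 in untreated mice, and gave -0.11 ± 0.20. Untreated mouse 3 was the lowest of the 6 mice for 8 of the 11 granule genes, and 2 of the 11 had a positive log2 change without it.

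Cybb encodes the catalytic subunit of the phagocyte NADPH oxidase, which produces superoxide. Its probe set in the set of 28 gave -0.06 ± 0.11. Of its other probe sets, one gave 0.33 ± 0.48 and the other 0.11 ± 0.20. At the first of these, intensities were 2536, 2706 and 2819 in treated mice, against 3175, 3467 and 878 in untreated mice. Here untreated mouse 3 lay far below the other 5, and without it the log2 change was -0.30 (limma, Benjamini-Hochberg adjusted p = 0.912). The drop in this mouse was thus unequal among probe sets of the same gene. Of the other measured oxidase subunit genes, 5 of 5 (Cyba, Ncf1, Ncf4, Rac1 and Rac2) had a positive log2 change, with a median of 0.07. Those with the smallest p were Ncf1 at 0.20 ± 0.15 and Rac2 at 0.30 ± 0.28, and the median was 0.01 without untreated mouse 3.

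In the late stage, 6 of 11 genes had a positive log2 change, with a median of 0.00 and a range of -0.31 to 0.42. S100a8 and S100a9 encode the paired calcium-binding proteins of neutrophil cytosol known together as calprotectin. S100a8 had intensities of 16684, 16645 and 16519 in treated mice, against 16790, 16433 and 16503 in untreated mice, a log2 change of 0.00 ± 0.08. S100a9 had 14996, 14725 and 14587 in treated mice, against 15263, 15240 and 14842 in untreated mice, a change of -0.03 ± 0.08. Neither gene separated the groups. The value of 16790 for S100a8 was the highest in the whole table, and 8 of the 28 genes averaged above an intensity of 8000. Whether the arrays still respond in proportion at such intensities was not tested.

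Among the late genes, Cxcr2, Csf3r and Trem1 varied most between mice of the same group, with within-group SDs of 0.68, 0.42 and 0.35 on the log2 scale. For the granule genes at the probe sets chosen, this SD was at most 0.29. Cxcr2, the receptor for the chemokines that draw neutrophils out of the marrow, had intensities of 1356, 1692 and 1029 in treated mice, against 1594, 1269 and 483 in untreated mice. Untreated mouse 3 was the lowest by a wide margin, and the other 5 mice overlapped. The log2 change of 0.42 ± 0.42 (95% interval -0.58 to 1.41) was the largest in size of the 28, and it was -0.09 without untreated mouse 3. Csf3r, the receptor of granulocyte colony-stimulating factor, had intensities of 2076, 2134 and 1260 in treated mice, against 2094, 1838 and 1186 in untreated mice. Mouse 3 of each group was low, so the groups overlapped almost fully, at 0.10 ± 0.27 over all mice and -0.14 without untreated mouse 3.

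**Figure D3:**
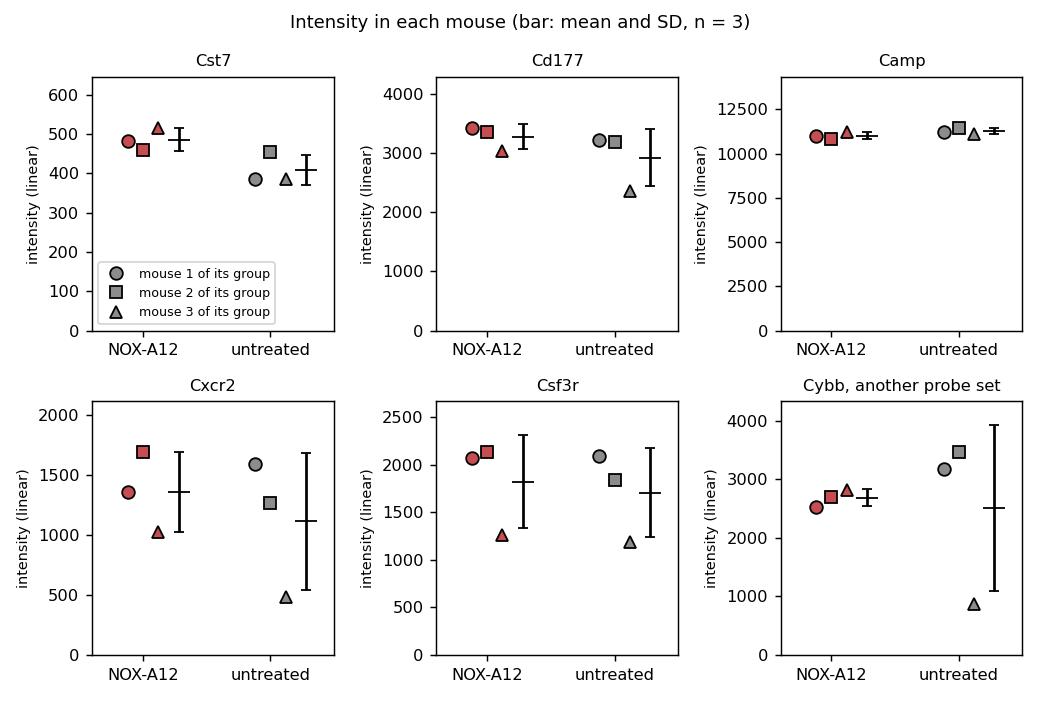
Linear intensity in each mouse, NOX-A12 on the left and untreated on the right of each panel, with the mean and SD (n = 3) beside the points. Camp is nearly level over all mice and Cst7 is higher in every treated mouse, whereas Cd177, Cxcr2, Csf3r and another probe set of Cybb are lowest in untreated mouse 3.

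Hcar2, which encodes a receptor for hydroxycarboxylic acids, had the largest negative change. It was dim, with intensities of 63.0, 58.4 and 29.4 in treated mice, against 60.8, 68.1 and 62.6 in untreated mice. NOX-A12 mouse 3 alone was low. The log2 change of -0.31 ± 0.21 rested on that mouse and was -0.058 without it. Trem1, an activating receptor that amplifies inflammatory signals in myeloid cells, ranged from 379 to 618 in treated and from 302 to 492 in untreated mice, a change of 0.24 ± 0.23. Single mice moved it widely. Leaving out NOX-A12 mouse 2 gave 0.063 and leaving out untreated mouse 1 gave 0.049, whereas it was 0.40 when NOX-A12 mouse 3 was left out and 0.39 when untreated mouse 3 was. At another, dim probe set of Trem1, the treated mice, from 57.5 to 62.9, lay above the untreated, from 43.9 to 57.0, a change of 0.20 ± 0.10. Fpr2, a receptor for formyl peptides, gave -0.02 ± 0.09. Ccrl2, which encodes an atypical receptor that binds chemerin, gave 0.11 ± 0.14. The remaining late genes were Wfdc21 (-0.07 ± 0.09), the cysteine protease inhibitor gene Stfa2l1 (-0.02 ± 0.09) and Mxd1, an antagonist of MYC (0.02 ± 0.10).

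The level averaged over the genes of a stage was then set out mouse by mouse. The early stage stood at 0.07, 0.07 and 0.07 in treated mice, against -0.10, 0.08 and -0.18 in untreated mice, on the log2 scale relative to the mean of the 6. The granule stage stood at 0.01, 0.04 and 0.00 in treated mice, against -0.02, 0.11 and -0.13 in untreated mice. The late stage stood at 0.09, 0.13 and -0.16 in treated mice, against 0.02, 0.06 and -0.14 in untreated mice. Treated mice were nearly equal in the early stage, and in the late stage mouse 3 of either group was low. The groups overlapped in each stage. The differences between group means were 0.14, 0.03 and 0.04 from early to late, and 0.08, -0.03 and -0.02 without untreated mouse 3.

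**Figure D4:**
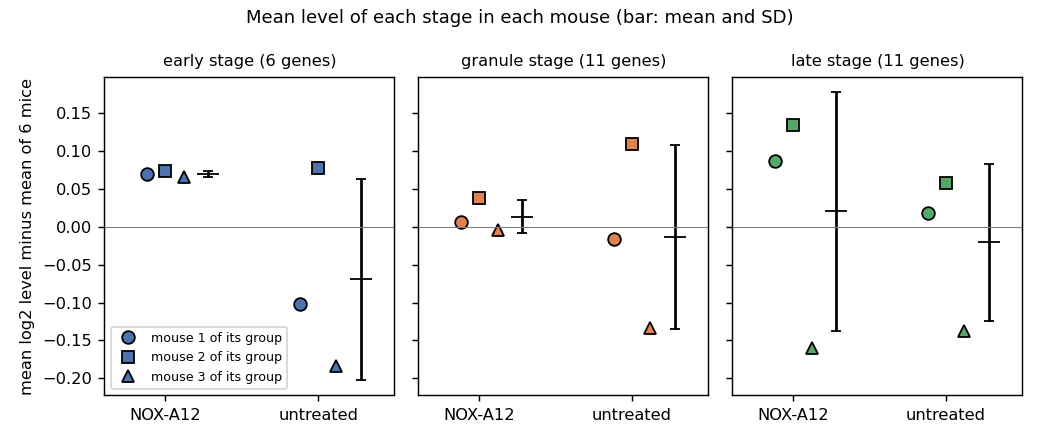
Mean log2 level of the genes of each stage in each mouse, relative to the mean of the 6 mice, with NOX-A12 left of untreated and the mean and SD beside the points. The treated mice sit together in the early stage, and untreated mouse 3 is the lowest untreated mouse in every stage.

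Marker lists of other cell types were set beside these levels, averaged in the same way. Some were lowest in untreated mouse 3, as the early and granule stages were. The monocyte list ran from 0.01 to 0.21 in treated and from -0.40 to 0.10 in untreated mice, with untreated mouse 3 the lowest. Its summed intensity ran from 14075 to 16505 in treated and from 10396 to 14783 in untreated mice. Of its 9 measured genes 7 had a positive log2 change, with a median of 0.31 that was 0.06 without untreated mouse 3. Untreated mouse 3 was also the lowest of the 6 mice for the erythroid list, at -0.15, the proliferation list, at -0.17, and the housekeeping list, at -0.09. Its low values were therefore not limited to myeloid genes.

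Other lists were lower on average in treated marrow with and without that mouse. The stromal and endothelial list ran from -0.28 to -0.12 in treated and from 0.07 to 0.29 in untreated mice, so that all treated mice lay below all untreated mice. Its summed intensity ran from 4467 to 5538 in treated and from 6086 to 7700 in untreated mice. The difference between group means was -0.39, and -0.34 without untreated mouse 3, with 0 of 10 genes positive either way. The macrophage list ran from -0.18 to -0.03 in treated and from -0.03 to 0.23 in untreated mice, where the groups overlapped slightly. Its summed intensity ran from 6945 to 7817 in treated and from 7331 to 8727 in untreated mice. The difference was -0.23, and -0.17 without untreated mouse 3, with 1 of 10 genes positive over all mice and 0 of 10 without it. The B lineage list ran from -0.29 to 0.05 in treated and from 0.0087 to 0.32 in untreated mice. Its summed intensity ran from 4213 to 5498 in treated and from 5422 to 7165 in untreated mice. Of its 9 measured genes 8 had a negative change, with a median of -0.32 that was -0.40 without untreated mouse 3. None of the genes in these lists was at 0 in any mouse, but the lowest intensity in the whole table was 0.66. Some were dim, such as Pax5, at 33.1 to 43.6 in treated and 37.8 to 63.2 in untreated mice. The part of these lists in the neutrophil values was not tested.

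Genes outside the 33 but assigned to the same stages were compared from lists drawn up with earlier results of these data known. The lists are therefore not independent of these data. Of 12 other primary granule and promyelocyte genes 11 had a positive log2 change, with a median of 0.10 that was 0.04 without untreated mouse 3. Hdc, which encodes histidine decarboxylase, had intensities of 739, 834 and 658 in treated mice, against 582, 555 and 564 in untreated mice, a change of 0.37 ± 0.11 that was also 0.37 without untreated mouse 3. Ctsc, which encodes the cathepsin that activates neutrophil serine proteases, had 1927, 1969 and 1805 in treated mice, against 1771, 1651 and 1448 in untreated mice, a change of 0.23 ± 0.11. Groups did not overlap for these 2 of the 12 genes, both higher in treated mice, against 3.92% of all genes. Elane, Prtn3 and Ctsg, which encode those proteases, gave 0.11 ± 0.12, 0.13 ± 0.13 and 0.03 ± 0.12.

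Of 14 other secondary and tertiary granule genes 12 had a positive change, with a median of 0.06, and 7 of 14 were positive without untreated mouse 3, with a median of -0.01. Orm1, an acute-phase glycoprotein gene also stored in granules, had 885, 877 and 872 in treated mice, against 514, 524 and 418 in untreated mice. All treated mice lay above all untreated mice, and the change of 0.84 ± 0.11 was 0.74 without untreated mouse 3. Groups did not overlap for 2 of the 14 genes, both higher in treated mice, against 3.92% of all genes. Adpgk, which encodes a glucokinase that uses ADP, gave 0.13 ± 0.09, and the granule protease genes Mmp8 and Mmp9 gave 0.12 ± 0.09 and 0.12 ± 0.13. Of 20 other mature neutrophil genes 15 had a positive change, with a median of 0.11 that was 0.03 without untreated mouse 3. The decoy receptor gene Il1r2 had 614, 676 and 724 in treated mice, against 480, 353 and 465 in untreated mice, a change of 0.62 ± 0.14. The lectin receptor gene Clec4d had 3509, 3054 and 2320 in treated mice, against 2150, 2181 and 1945 in untreated mice, a change of 0.48 ± 0.16. For Il1r2 and Clec4d the groups did not overlap, and their changes were 0.68 and 0.43 without untreated mouse 3. Over this list, groups did not overlap for 3 genes higher and 1 lower in treated mice. Over all genes the shares were 3.92% and 6.68%. The others of this list were Clec4e, at 0.41 ± 0.15, and Asprv1, at -0.18 ± 0.09.

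A list of myeloid transcription factors was slightly higher in treated marrow on average. Irf8 and Klf4 in it are also in the monocyte list, whereas Cebpa and Gfi1, described above, are not in it. The mean level of the list ran from 0.0078 to 0.11 in treated and from -0.11 to -0.0044 in untreated mice, so the groups were separated only narrowly. Its summed intensity overlapped, from 12581 to 13463 in treated and from 11659 to 12871 in untreated mice. Of 13 measured, 12 had a positive log2 change (92.3%, against 47.3% of all genes). The median was 0.09 over all mice and 0.09 without untreated mouse 3. Klf4, a factor of the monocyte branch, had 764, 840 and 779 in treated mice, against 702, 670 and 541 in untreated mice. Its groups did not overlap, and its change of 0.32 ± 0.12 was 0.21 without untreated mouse 3. It was the only gene of the 13 without overlap, where 3.92% of all genes were higher in this way. Id1, an inhibitor of helix-loop-helix factors, gave 0.26 ± 0.17. Spi1, which encodes PU.1, gave 0.11 ± 0.11, and Cebpb and Cebpd gave 0.18 ± 0.18 and 0.10 ± 0.10. Among 8 genes of neutrophil growth and release, 4 had a positive change, with a median of -0.03. Those with the smallest p were Cxcl12 and Csf2. Cxcl12 had 2951, 2580 and 3131 in treated mice, against 3608, 3664 and 4098 in untreated mice, all treated below all untreated, a change of -0.39 ± 0.11. Groups did not overlap for 2 of these 8 genes, both lower in treated mice, against 6.68% of all genes. Csf2 gave -0.38 ± 0.16 and was near the bottom of the scale at 2.95 to 5.15 in treated and 6.69 to 16.7 in untreated mice. Cxcr4 gave 0.03 ± 0.09. The growth factor gene Csf3 was listed between 1.00 and 3.21 in all mice. By limma, 0 genes of these wider lists passed at an adjusted p under 0.05.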

How the data were processed

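Marrow RNA of 6 mice, each on an array of its own, was converted to biotinylated cRNA, per the labels' protocols. The authors deposited linear probe-set intensities in a single table of 45037 probe sets. How these were summarised and normalized is not stated in the labels or the table. Array medians were 44.8 to 45.6, so the values were used as deposited. The number of arrays limits the precision.

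Probe sets were named through the platform annotation, in which 34945 had 1 symbol, 932 had several and 9160 had none listed. Groups came from the sample titles, which number separate mice. The model, fitted to log2(intensity + 16), was that of limma 3.58.1 (R 4.3.3; two-sided, moderated variances, no covariate), with Benjamini-Hochberg adjustment over all probe sets and a threshold of 0.05, and was tested on simulated data. Deviations of same-numbered mice from their group means correlated at -0.09, 0.05 and 0.03. These low values showed no pairing by number, but with so few mice they cannot decide whether the numbers pair mice.

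The 33 genes and the lists were chosen with earlier results of these data known, so lists have counts and medians and no test. Among the 28 genes, values in every mouse are given for those whose groups do not overlap. They are also given for the 2 largest changes and the gene of highest mean in each stage. The stage markers Mpo, Ltf, Camp, S100a8, S100a9, Cxcr2 and Csf3r were treated alike, and Ly6g was planned too but had no probe set. From each wider list the 2 genes of smallest p are named. Other genes with values, such as Cybb, Trem1, Elane or Mmp8, were added after their values were seen. Upstream sequences are from RefSeq (GRCm38.p6). Alternatives changed the normalization, the offset (1 or 64), the variance model, the array weights, the threshold (0.1) and the choice of probe set, left out dim probe sets or each mouse in turn, took 1 probe set per gene, or added a block on mouse number. Leaving out genes above an intensity of 8000 and showing each other probe set were chosen after seeing the data.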

Additional observations from a re-analysis of the deposited data

How the results depend on the processing

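None of the 28 genes and none of the probe sets passed an adjusted p under 0.05 in any alternative run with limma, nor 0.1 in the fit reported, where 845 probe sets were higher and 1395 lower at an unadjusted p under 0.05. With the mouse number as a replicate block the count was 0 and the lowest adjusted p 0.959. Stage medians moved by less than the spread between mice in every alternative. That spread, the larger of the group SDs of the stage level, was 0.13 (early), 0.12 (granule) and 0.16 (late). It exceeded each median, so this does not show that the medians keep their sign. When each mouse was left out in turn the medians ranged from 0.10 to 0.20 (early), -0.04 to 0.08 (granule) and -0.04 to 0.03 (late). The number of genes with a positive change ranged from 10 to 22 of 28 when each mouse was left out, from 4 to 6 in the early, 2 to 9 in the granule and 4 to 7 in the late stage. Both minima of 10 and 2 came without untreated mouse 3. Other settings turned the sign of 6 genes. Array weights gave -0.031 for Fcnb, -0.0068 for Ltf and -0.036 for Padi4, and quantile normalization -0.016 for Padi4. Averaging all probe sets of a gene gave 0.13 for Cybb, -0.021 for Itgb2l and -0.0090 for Mxd1. Single other probe sets gave 0.33 and 0.11 for Cybb, -0.042 and -0.13 for Itgb2l, and -0.021 and -0.029 for Mxd1. Leaving out mice turned the sign of 16 genes, with these ranges of the log2 change: Fcnb -0.051 to 0.18, Igsf6 -0.0083 to 0.23, Ltf -0.059 to 0.077, Lcn2 -0.022 to 0.11, Cybb -0.14 to 0.027, Lyz2 -0.014 to 0.067, Itgb2l -0.029 to 0.21, Ltb4r1 -0.34 to 0.042, Padi4 -0.075 to 0.12, S100a8 -0.0026 to 0.013, Cxcr2 -0.094 to 0.75, Csf3r -0.14 to 0.34, Fpr2 -0.047 to 0.032, Stfa2l1 -0.042 to 0.029, Ccrl2 -0.0070 to 0.22, Mxd1 -0.026 to 0.067. The cause was not tested. No value could be given for S100a8 among probe sets without a shared-sequence suffix. Without a change of sign, Hcar2 ranged from -0.46 to -0.058 and Trem1 from 0.049 to 0.40 when each mouse was left out. Hcar2 gave -0.41 with an offset of 1 and -0.17 with 64.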
